A study of Mus musculus with 6 samples.

Results

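Conventional CD4 T cells, the helper cells that carry CD4 and an alpha-beta receptor but lack the regulatory factor FOXP3, were picked out of single-cell RNA profiles of mouse skin. They were selected on their own measured marker genes, so the levels of those genes are no result. A cell was taken when it held at least 1 UMI (a counted RNA molecule) of Cd3e, Cd3d or Cd3g and at least 1 of Cd4. It also had to hold none of Foxp3, Cd8a, Cd8b1, Trdc, Csf1r and Cd207, fewer than 20 UMIs of Krt5 and Krt14 together per 10000, and not Mki67 together with Top2a. The rule was met by 287 of 21178 cells. They came from 6 mice of the NINJA strain, 6 to 12 weeks old, whose skin had been treated with 4-OH-Tam at the sampled area. The labels name 3 treatments with 2 mice each: NO_AG (antigen off), AG (antigen on) and AG_CPI (antigen on together with CPI, which the labels do not spell out). The mice had been examined for visible skin disease and for P14 CD8 T cells in the skin before sequencing. Libraries were made with a 5′ single-cell kit, the mice are labelled as separate biological replicates, and their sex is not given. The 2 NO_AG mice gave 29 and 35 conventional CD4 T cells, the AG mice 102 and 80, and the AG_CPI mice 17 and 24.

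CD4 T cells recognise peptides on MHC class II molecules. Once activated they express the ligand CD40L and costimulatory receptors of the TNF receptor family such as OX40, and they later gain inhibitory receptors such as PD-1, CTLA-4 and LAG-3. Their daughters take helper directions that are set by lineage factors and known by their cytokines, such as T-bet with interferon-gamma and GATA3 with interleukins 4, 5 and 13. In skin most of them are memory cells that stay in the tissue beside regulatory T cells, CD8 T cells and gamma-delta T cells.

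The conventional cells held 40480 to 281019 UMIs per mouse in all, with a median of 2137 to 3098.5 UMIs and 948 to 1288 genes per cell. The AG_CPI 1 library held the fewest of these cells and UMIs. Its cells differed from those of the other 5 mice by 0.599 to 0.742 (root mean square difference of log2 levels), and by 0.687 from those of the other AG_CPI mouse, which itself lay 0.522 and 0.526 from the 2 AG mice. Other pairs fell in the same range, with AG_CPI 2 at 0.674 and 0.661 from the NO_AG mice and NO_AG 1 at 0.611 from AG 2. The part of depth in these distances was not tested. Xist, the RNA that coats the inactive X chromosome, was found in 89.7% and 82.9% (NO_AG), 73.5% and 73.8% (AG) and 0% and 75% (AG_CPI) of the cells by mouse. Ddx3y, a Y-linked gene, was found in 7 of the 17 AG_CPI 1 cells and in none of the others. The CD8 T cells of the AG_CPI 1 library held Xist in 51.1% of 655 cells and Ddx3y in 2.29%, so the comparison with CD8 T cells of the same library sets cells against each other that differ in these 2 genes. The main counts are therefore given without this mouse as well. Of the barcodes of the 287 cells, 4 occurred in a further library, but none of them as a conventional CD4 T cell there. A doublet caller marked 0, 0, 3, 7, 0 and 1 of the cells in the order of the mice.

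Receptor genes that the selection did not use were checked next. Trac, the constant region of the receptor alpha chain, was found in 159 of the 287 cells (55.4%, 95% Wilson interval 49.6% to 61.0%). Keratinocyte reference cells, which held at least 20 UMIs of Krt5 and Krt14 per 10000 and no Cd3 or Ptprc UMI, served as the measure of free RNA for genes that they do not express themselves, and 1.43% of them held Trac although their median depth of 2302 to 6925 UMIs was higher in 4 of the 6 mice. By mouse, Trac was found in 44.8% and 37.1% (NO_AG), 57.8% and 56.2% (AG) and 70.6% and 70.8% (AG_CPI), highest in both AG_CPI mice, but its level did not pass the test between AG_CPI and NO_AG described further on (log2 difference 0.82 (SE 0.30, adjusted p = 0.291)). Cd5, which tunes receptor signals, was found in 151 of the 287 cells (52.6%) and the costimulatory receptor gene Cd28 in 113 (39.4%). Cd40lg, the helper ligand, was found in 84 of the 287 (29.3%), against 5.93% of the CD8 T cells and 3 of 143 Foxp3 regulatory T cells. Zbtb7b, the factor of the CD4 lineage, was found in 41 of the 287 (14.3%) against 83 of 3021 CD8 T cells (2.75%). The keratinocyte reference, at 18.2%, was higher for this gene.

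The selection was narrow. From 10586 cells with a Cd3 UMI, 660 held Cd4, 448 of these lacked Foxp3, 376 also lacked Cd8a and Cd8b1, 329 were left after the gamma-delta, myeloid and keratinocyte steps and 287 after the step on dividing cells. The call rests on single molecules in many of them, since 183 of the 287 held exactly 1 Cd4 UMI. As a measure of free Cd4 RNA, a Cd4 UMI was found in 10 of 6556 keratinocyte reference cells, 9 of them in AG 2, and in 35 of 2925 Trdc-positive T cells. By mouse the share of Trdc-positive cells with Cd4 was 0.299% and 0% (NO_AG), 1.23% and 4.90% (AG) and 0.472% and 0.685% (AG_CPI), highest in the AG mice. The largest Krt5 and Krt14 sum inside the limit was 19.7 per 10000 in AG_CPI 2, and the smallest that was left out was 30.8 in AG 2. A single missing Foxp3 UMI also moves a regulatory cell into the conventional gate: of the 143 cells with Foxp3, 63 held exactly 1 UMI of it.

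The share of conventional CD4 T cells was higher in both AG skin samples than in the other 4. Of all cells they made up 0.583% and 0.855% (NO_AG), 2.91% and 1.72% (AG) and 0.979% and 1.09% (AG_CPI). The means were 0.719% ± 0.192 (SD, n = 2), 2.31% ± 0.846 (SD, n = 2) and 1.03% ± 0.0762 (SD, n = 2), and the mice of no 2 groups overlapped. Among cells with a Cd3 UMI the shares were 1.9% and 2.12% (NO_AG), 4.92% and 3.3% (AG) and 1.32% and 1.48% (AG_CPI), so here the AG_CPI mice lay lowest. The share of Trdc-positive T cells with a Cd4 UMI was highest in the AG mice too. Unlike the share of Cd3 cells, it was higher in AG 2 than in AG 1 and higher in AG_CPI than in NO_AG. In AG 2 its 4.90% exceeded the 3.3% of Cd3 cells that the conventional cells made up. Its part in the higher AG shares was not tested. The two-sided exact permutation p was 0.33 for each of these 6 differences, which is the smallest value that 2 mice against 2 can give. AG exceeded NO_AG by 1.59 points of all cells and 2.10 points of Cd3 cells, and without AG 1 by 0.996 and 1.29 points. AG_CPI differed from AG by -1.28 points of all cells, without AG 1 by -0.682 and without AG_CPI 1 by -1.23. From NO_AG it differed by 0.314 points of all cells, or 0.368 without AG_CPI 1 and 0.178 without NO_AG 1, and by -0.528 points of Cd3 cells without AG_CPI 1, where the difference from AG was -2.63. When a receptor chain UMI was required and no Krt5 or Krt14 UMI allowed, AG exceeded NO_AG by 0.910 points of all cells and 1.27 of Cd3 cells. AG_CPI then differed from AG by -0.487 points of all cells and by -1.19 of Cd3 cells, against -2.71 in the full gate. The difference between AG_CPI and NO_AG among Cd3 cells was 0.0848 points in the stricter gate, against -0.611 in the full gate. Shares of cells in a suspension cannot tell more CD4 T cells from fewer other cells.

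The regulatory part of the CD4 T cells, cells with Foxp3 out of those with and without it, was 17.1% and 20.5% (NO_AG), 39.3% and 27.3% (AG) and 22.7% and 52.9% (AG_CPI). The AG mice lay above the NO_AG mice by 14.5 percentage points on average (exact permutation p = 0.33). The difference was 8.47 points without AG 1 and 9.85 points when cells were thinned to 1500 UMIs before the gate. The AG_CPI mice lay on either side of the AG mice, with a mean difference of 4.56 points (exact permutation p = 1), which was -10.6 points without AG_CPI 2, -1.45 without AG 2, 10.6 without AG 1 and 19.7 without AG_CPI 1. The share in AG_CPI 1 rests on 22 cells (95% Wilson interval 10.1% to 43.4%).

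**Figure D1:**
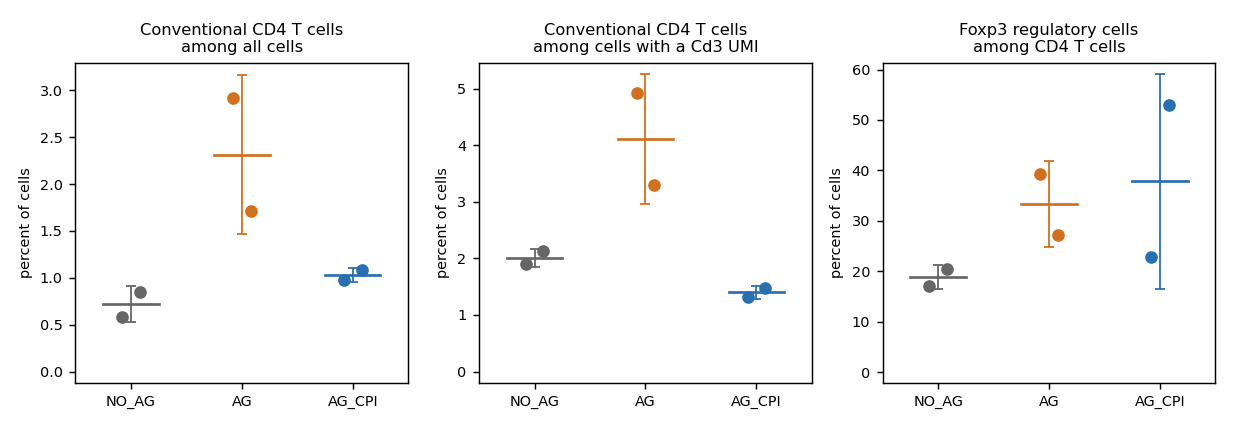
Conventional CD4 T cells as a percent of all cells and of cells with a Cd3 UMI, and Foxp3 regulatory cells as a percent of CD4 T cells. Points are mice, bars are means and whiskers are SDs of 2 mice, and the AG mice (2.91% and 1.72% of all cells) lie above the other 4.

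Gene levels were compared between groups as the mean UMIs per 10000 of the cells of each mouse, with 2880 genes tested by limma. The genes of the gate were left out. Against NO_AG, the AG_CPI cells differed in 28 genes at an adjusted p of 0.05 (0.972% of those tested), 24 higher (0.833%) and 4 lower (0.139%), with a median log2 difference of 0.11 over all tested genes. With the deposited scaling alone the count was 29, split into 21 higher and 8 lower, and the median was 0.02. Between AG and NO_AG, and between AG_CPI and AG, 0 genes passed in the same fit (0.0% each), with 216 and 173 genes at an unadjusted p under 0.05. These comparisons share their groups, so they are not independent of each other.

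Genes of inhibitory receptors were among those higher in AG_CPI. Of 16 checkpoint and exhaustion genes, 11 were tested and 6 rose in AG_CPI against NO_AG, namely Pdcd1, Tigit, Lag3, Ctla4, Tox and Entpd1. Of these 6, Tigit and Entpd1 still passed without AG_CPI 1, Ctla4 without NO_AG 1, and none without NO_AG 2 or with mice weighted by cells. With a receptor chain UMI required and no Krt5 or Krt14 UMI allowed, only Tigit and Lag3 of the 6 passed. When cells with a Trbv13-3 UMI were dropped Tigit still passed, and the other 5 did not, with adjusted p of 0.0558 to 0.143. Their log2 differences were then 2.12 for Pdcd1 (1.95 over all cells), 2.89 for Lag3 (3.12), 1.81 for Ctla4 (2.02), 1.93 for Tox (1.83) and 1.87 for Entpd1 (1.74). Ctla4 stood at 2.66 without NO_AG 1 and at 1.37 without NO_AG 2. The median log2 difference of the 11 was 1.83, or 1.95 with Entpd1 at its bound, against 0.11 over all tested genes. In 9 of the 11 both AG_CPI mice lay above both NO_AG mice, against 21.0% of all tested genes. The gene lists were chosen with earlier results of these data known, so such list shares, here and below, are descriptive only. The summed level of the checkpoint list in UMIs per 10000 was 5.27 and 4.01 (NO_AG), 11.8 and 19.5 (AG) and 27.0 and 25.6 (AG_CPI).

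Tigit, a receptor that competes with CD226 for its ligands, stood at 0.604 and 1.03 UMIs per 10000 in the NO_AG mice, 2.91 and 3.01 in the AG mice, and 4.27 and 5.05 in the AG_CPI mice. The 3 groups did not overlap and followed each other in that order. The AG_CPI cells exceeded the NO_AG cells by a log2 difference of 2.09 (SE 0.29, adjusted p = 0.0169). Lag3, an inhibitory receptor that binds MHC class II, was measured at 0.167 and 0.339 (NO_AG), 0.451 and 2.69 (AG) and 5.96 and 5.38 (AG_CPI) UMIs per 10000. Here AG 1 was close to the NO_AG mice and AG 2 was not, and both AG_CPI mice lay above all others. The log2 difference between AG_CPI and NO_AG was 3.12 (SE 0.49, adjusted p = 0.0255). Pdcd1, the gene of PD-1, was at 0.243 and 0.102 (NO_AG), 1.3 and 1.9 (AG) and 2.57 and 1.48 (AG_CPI). Its AG and AG_CPI mice overlapped, and all 4 lay above the NO_AG mice, in which 3 UMIs were counted in all against 25 in AG_CPI (ratio of summed UMIs 11.4, 95% counting interval 3.47 to 58.8). Its log2 difference between AG_CPI and NO_AG was 1.95 (SE 0.35, adjusted p = 0.0386).

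Ctla4, whose product takes CD80 and CD86 away from CD28, stood at 1.58 and 0.342 (NO_AG), 3.31 and 3.35 (AG) and 5.04 and 4.07 (AG_CPI) UMIs per 10000, and the mice of the 3 groups did not overlap. Its log2 difference between AG_CPI and NO_AG was 2.02 (SE 0.39, adjusted p = 0.0386). Tox, a factor of exhausted T cells, was at 0 and 0.167 (NO_AG), 0.66 and 1.34 (AG) and 1.39 and 1.57 (AG_CPI) and differed by 1.83 (SE 0.35, adjusted p = 0.0386), with 18 UMIs in AG_CPI and 2 in NO_AG (ratio 12.3, counting interval 2.94 to 109). Entpd1, which encodes the ectoenzyme CD39, had 16 UMIs in AG_CPI and 0 in NO_AG, at least 7.28-fold higher when 3 UMIs are allowed over the NO_AG cells. Havcr2, the gene of TIM-3, did not pass the test, at 0.201 and 0.0945 (NO_AG), 0.292 and 1.89 (AG) and 2.62 and 2.03 (AG_CPI) (adjusted p = 0.0670). Of the keratinocyte reference cells of any mouse at most 2.89% held Tigit, 3.35% Lag3, 1.40% Pdcd1 and 2.73% Ctla4. The part of free RNA in the differences of these receptor genes was not tested.

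**Figure D2:**
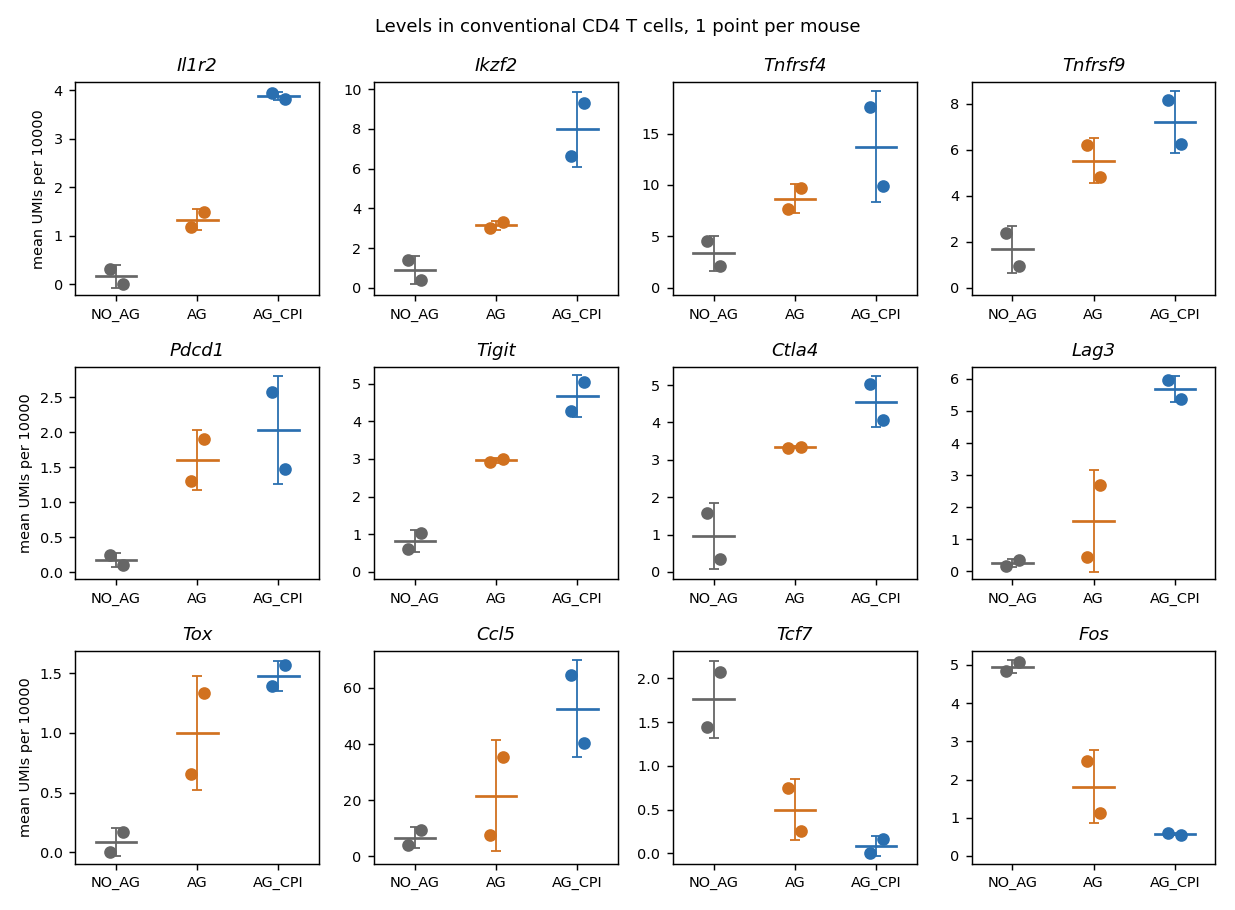
Mean UMIs per 10000 of 12 genes in the conventional CD4 T cells of each mouse; points are mice, bars are means and whiskers are SDs of 2 mice. Il1r2, Ikzf2, Tigit and Lag3 are highest in both AG_CPI mice, while Tcf7 and Fos are highest in both NO_AG mice.

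The TNF receptor genes Tnfrsf4, Tnfrsf9 and Tnfrsf1b and the regulatory T cell genes Ikzf2 and Il1r2 were higher as well. OX40 (Tnfrsf4), a costimulatory receptor, stood at 4.53 and 2.16 UMIs per 10000 in the NO_AG mice, 7.67 and 9.68 in the AG mice, and 17.5 and 9.94 in the AG_CPI mice, with no overlap between the groups. It rose in AG_CPI against NO_AG by 2.03 (SE 0.34, adjusted p = 0.0355) on the log2 scale, and without AG_CPI 1 the difference was 1.65 and did not pass. Tnfrsf9, the gene of 4-1BB, was at 2.39 and 0.945 (NO_AG), 6.21 and 4.82 (AG) and 8.14 and 6.26 (AG_CPI) and differed by 2.02 (SE 0.34, adjusted p = 0.0355), or by 1.86 without AG_CPI 1, when it did not pass. Tnfrsf1b, the second TNF receptor, rose by 1.70 (SE 0.30, adjusted p = 0.0386). GITR (Tnfrsf18) and Icos, both also costimulatory, did not pass, with adjusted p-values of 0.0760 and 0.0555 for AG_CPI against NO_AG, although all 4 antigen-bearing mice lay above both NO_AG mice. Of the 13 costimulation genes tested, 2 rose (median log2 difference 0.74).

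Ikzf2, the gene of Helios, a factor typical of regulatory T cells, stood at 1.39 and 0.40 (NO_AG), 3.0 and 3.32 (AG) and 6.63 and 9.31 (AG_CPI) UMIs per 10000. Il1r2, a decoy receptor for interleukin 1 that regulatory T cells also carry, stood at 0.322 and 0 (NO_AG), 1.18 and 1.49 (AG) and 3.94 and 3.82 (AG_CPI). For both genes the groups did not overlap and the AG_CPI mice were highest. The log2 differences between AG_CPI and NO_AG were 2.78 (SE 0.36, adjusted p = 0.0169) for Ikzf2 and 2.84 (SE 0.34, adjusted p = 0.016) for Il1r2, the smallest p-values of the comparison. Il1r2 had 48 UMIs in AG_CPI and 2 in NO_AG, a ratio of 32.7 per UMI sequenced with a 95% counting interval of 8.58 to 278. Both calls held without AG_CPI 1 and were the 2 that held when mice were weighted by their number of cells. Neither held without NO_AG 2 or with no filter on low levels. Of all keratinocyte reference cells 21.3% held Il1r2 and 20.1% Ikzf2, so for these genes the reference gives no measure of free RNA. By mouse, Il1r2 was found in 29.7% and 27.4% (NO_AG), 18.5% and 4.05% (AG) and 3.65% and 4.18% (AG_CPI) of the keratinocyte reference cells. For Ikzf2 the same shares were 23.4% and 26.6% (NO_AG), 20.5% and 7.85% (AG) and 5.11% and 10.9% (AG_CPI).

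Of 16 genes of the regulatory program other than Foxp3, 10 were tested and 5 rose in AG_CPI against NO_AG (Ctla4, Entpd1, Ikzf2, Tnfrsf4 and Tnfrsf9, with Ctla4 and Entpd1 also in the checkpoint list). Without AG_CPI 1, Ikzf2 and Entpd1 still passed. The median log2 difference was 1.58, or 1.72 with Entpd1 at its bound. Cells of the conventional gate that held all 3 of Ikzf2, Il2ra and Ctla4 numbered 2 of 29 and 2 of 35 in NO_AG, 12 of 102 and 11 of 80 in AG, and 5 of 17 and 5 of 24 in AG_CPI. Among cells with Foxp3 the same was true of 61 of 143. Cells with none of the 3 genes were 148 of the 287 conventional cells and 5 of the 143 regulatory cells. The part of such cells in the group differences was not tested.

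The stretches before the start sites of 2 genes that rose are shown because they hold a match to the site of STAT factors, the messengers of cytokine receptors. Capitals mark the match to TTCNNNGAA, which was searched together with the AP-1 site TGANTCA on both strands in the 250 bases before each RefSeq start (build GRCm38.p6), for 17 of the 24 genes that were higher and all 4 that were lower. The window of Il1r2 lies at chr1:40085843-40086092 on the plus strand, and its match ends 102 bases before the start. The window of Tnfrsf1b lies at chr4:145246871-145247120 on the minus strand, and its match ends 172 bases before the start.
Il1r2: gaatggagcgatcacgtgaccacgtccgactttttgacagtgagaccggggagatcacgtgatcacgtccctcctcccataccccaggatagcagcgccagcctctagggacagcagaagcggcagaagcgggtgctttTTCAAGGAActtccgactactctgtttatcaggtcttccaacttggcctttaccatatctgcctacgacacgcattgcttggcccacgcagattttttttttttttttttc
Tnfrsf1b: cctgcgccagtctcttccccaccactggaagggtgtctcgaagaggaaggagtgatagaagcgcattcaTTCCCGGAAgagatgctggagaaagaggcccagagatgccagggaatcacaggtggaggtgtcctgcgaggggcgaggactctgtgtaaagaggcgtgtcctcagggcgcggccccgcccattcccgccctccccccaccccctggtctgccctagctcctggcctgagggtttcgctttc
Over the 24 windows of the genes that were higher, 4 held the STAT letters (16.7%) and 1 the AP-1 letters (4.17%), against 7.02% and 6.75% of all 32851 windows. The 7 windows of the genes that were lower held neither. The 2 motifs can overlap each other and did so in 14 of all windows but in none of these, and a match shows letters only.

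The chemokine genes Ccl4 and Ccl5 were higher too. Ccl4, a chemokine gene, was counted 0 times in NO_AG and 360 times in AG_CPI, at least 164-fold higher with 3 UMIs allowed over the NO_AG cells. Without AG_CPI 1 the count was 77 and the bound 53.4-fold, and without AG_CPI 2 it was 374-fold. Its levels were 0 and 0 (NO_AG), 1.47 and 11.2 (AG) and 71.7 and 11.1 (AG_CPI) UMIs per 10000, and the AG_CPI 1 value came from 283 UMIs in 4 of 17 cells. Ccl5, a further chemokine gene, was at 4.02 and 9.39 (NO_AG), 7.59 and 35.5 (AG) and 64.7 and 40.4 (AG_CPI) and rose by 3.08 (SE 0.58, adjusted p = 0.0386) in AG_CPI against NO_AG. The keratinocyte reference moved with the groups for both: cells of it with a Ccl5 UMI were 0.511% and 1.18% (NO_AG), 6.34% and 43.9% (AG) and 13.1% and 34.7% (AG_CPI), and for Ccl4 0.213% and 0.178% (NO_AG), 1.29% and 16% (AG) and 2.19% and 4.6% (AG_CPI). The sum of 9 CD8 T cell genes, of which Cd8a and Cd8b1 are at 0 by the gate, moved with the groups too, at 2.33 and 1.24 (NO_AG), 4.45 and 4.49 (AG) and 3.34 and 5.57 (AG_CPI) UMIs per 10000. The 4 of them tested had a median log2 difference of 1.05 between AG_CPI and NO_AG, and none passed. The part of these values in the differences of Ccl4, Ccl5, Lag3 and Pdcd1 was not tested. Of 11 cytotoxic genes tested, Ccl4 and Ccl5 were the 2 that rose, and the median log2 difference was 1.15. Gzmb stood at 0.371 and 0.21 (NO_AG), 1.38 and 7.32 (AG) and 2.44 and 5.66 (AG_CPI) and did not pass (adjusted p = 0.103).

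Pglyrp1, a peptidoglycan recognition protein, was at 1.06 and 1.28 (NO_AG), 2.82 and 4.88 (AG) and 7.5 and 6.18 (AG_CPI) UMIs per 10000 and rose by 2.24 (SE 0.31, adjusted p = 0.0169) in AG_CPI against NO_AG. Srgn, the core protein of secretory granules, was at 8.22 and 9.25 (NO_AG), 15.9 and 23.2 (AG) and 21.7 and 21.2 (AG_CPI) and rose by 1.39 (SE 0.21, adjusted p = 0.0228). Both AG mice lay above both NO_AG mice for each gene as well. Other genes that rose were the integrin chain gene Itgav (log2 difference 1.82), the adaptor gene Samsn1 (1.62), the glycolytic enzyme gene Gapdh (1.07), the MHC class I gene H2-K1 (0.67), Sdf4 (1.72), the endosome gene Eea1 and the fatty acid elongation gene Hacd3. Eea1 had 18 UMIs in AG_CPI and 1 in NO_AG (ratio 24.6, counting interval 3.88 to 1023), and Hacd3 had 21 and 3 (ratio 9.55, interval 2.85 to 50.0). Itgav, Samsn1 and Sdf4 are named here after their values were seen. Trbv29, a receptor segment, had 21 UMIs against 0 (at least 9.55-fold higher), all from 1 cell in each AG_CPI mouse, and so describes 2 cells. Ighm, the IgM heavy chain gene of B cells, stood at 1.34 and 0.349 (NO_AG), 2.48 and 2.37 (AG) and 3.91 and 4.61 (AG_CPI) and rose by 2.02 (SE 0.37, adjusted p = 0.0386). It was found in 60.0% to 85.2% of the Foxp3 regulatory cells by mouse (5 to 66 cells), in 4.72% to 6.56% of the CD8 T cells and in at most 1.49% of the keratinocyte reference cells. Of the 8 B and mast cell genes with a column, 6 were at 0 in every mouse, Cd79a and Ms4a1 among them.

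The genes that fell in AG_CPI against NO_AG were Fos, Tcf7, Jak2 and Tmsb10. Tcf7 encodes TCF-1, a factor of naive, memory and stem-like T cells. It stood at 1.45 and 2.07 (NO_AG), 0.744 and 0.254 (AG) and 0 and 0.169 (AG_CPI) UMIs per 10000, highest in both NO_AG mice and lowest in both AG_CPI mice. Its log2 difference was -1.88 (SE 0.36, adjusted p = 0.0386), from 1 UMI in AG_CPI and 27 in NO_AG (ratio 0.0505, counting interval 0.00123 to 0.307). It was the 1 gene that fell of 5 naive and central memory genes tested. Fos, a subunit of AP-1 that receptor signals and tissue handling both induce, was at 4.83 and 5.09 (NO_AG), 2.5 and 1.13 (AG) and 0.60 and 0.557 (AG_CPI) and differed by -2.24 (SE 0.33, adjusted p = 0.0196). Fos in the keratinocyte reference was lower in the same order of groups, with a UMI in 51.8% and 43.5% (NO_AG), 29% and 26.4% (AG) and 25.5% and 23.8% (AG_CPI) of cells, and its part in the T cell difference was not tested. The 16 heat shock and dissociation stress genes, Fos among them, summed to 78.3 and 68.5 (NO_AG), 69.3 and 49.1 (AG) and 50.7 and 55.1 (AG_CPI), lower in both AG_CPI mice than in both NO_AG mice. Of the 12 tested only Fos fell, and their median log2 difference was -0.22. The part of this list in the Fos difference was not tested. Jak2, a kinase of cytokine receptors, had 0 UMIs in AG_CPI against 18, at least 4.40-fold lower, a bound that is 2.88-fold without AG_CPI 1 and 1.51-fold without AG_CPI 2. Tmsb10, an actin-binding peptide, was at 106 and 111 (NO_AG), 103 and 95.3 (AG) and 74.9 and 65 (AG_CPI) and differed by -0.49 (SE 0.09, adjusted p = 0.0386).

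Lists of other functions showed few or no calls between AG_CPI and NO_AG. Of 13 receptor response genes tested, Fos fell and the other 12 did not pass. Of 17 interferon-gamma response genes H2-K1 rose, with a median log2 difference of 0.36. None passed of 14 type I interferon, 5 Th2, 4 Th17, 2 follicular helper, 10 residency and 8 helper cytokine genes, and of 9 Th1 genes only Ccl4 and Ccl5 did. Markers of other cells gave these summed levels per 10000 UMIs: keratinocyte genes 3.37 to 34.3, highest in AG_CPI 2, myeloid genes 0.130 to 3.04, fibroblast and endothelial genes 0 to 0.728, and CD8 T cell genes 2.33 and 1.24 (NO_AG), 4.45 and 4.49 (AG) and 3.34 and 5.57 (AG_CPI). The 14 dendritic and Langerhans cell genes with a column summed to 35.2 in AG 2 and 1.92 to 9.32 elsewhere, and 5 of them were at 0 in every mouse. The 12 genes of group 2 innate lymphoid cells summed to 8.26 and 17.2 (NO_AG), 18.3 and 14.5 (AG) and 12.4 and 19.5 (AG_CPI). The part of such cells among those selected was not tested.

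How firm the 28 calls are depends on single mice. Leaving out each mouse in turn gave 8 calls without NO_AG 1, 0 without NO_AG 2, 17 without AG 1, 24 without AG 2, 14 without AG_CPI 1 and 31 without AG_CPI 2. Without AG_CPI 1, 7 of the 28 remained: Ccl4, Entpd1, Fos, Ikzf2, Il1r2, Pglyrp1 and Tigit. Lag3 then differed by 3.08, Tnfrsf1b by 1.66, Srgn by 1.39 and Tcf7 by -1.67 on the log2 scale, and these 4 did not pass. With a receptor chain UMI required and no Krt5 or Krt14 UMI allowed, 9 of the 28 remained. They were Ccl4, Gapdh, Ikzf2, Il1r2, Lag3, Pglyrp1, Sdf4, Tigit and Tnfrsf4, so Fos and Tcf7 were not among them.

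In the AG cells against NO_AG, no gene passed, so the following are values only. Both AG mice lay above both NO_AG mice in 10 of the 11 checkpoint genes tested, against 25.7% of all tested genes, and the median log2 difference of the 11 was 1.13, against 0.15 over all. The differences were 1.67 (SE 0.35, adjusted p = 0.173) for Pdcd1, 1.48 (SE 0.29, adjusted p = 0.173) for Tigit and 1.59 (SE 0.39, adjusted p = 0.264) for Ctla4. Without NO_AG 1 the Ctla4 difference was 2.23 and without NO_AG 2 it was 0.95. For Tnfrsf9 the difference was 1.62 (SE 0.34, adjusted p = 0.173) and for Tnfrsf18 1.17 (SE 0.24, adjusted p = 0.173). The 10 tested genes of the regulatory program had a median of 1.23, with 8 of them free of overlap. For Tcf7 it was -1.14 (SE 0.36, adjusted p = 0.454). Pdcd1 had 94 UMIs in AG and 3 in NO_AG (ratio 9.66, counting interval 3.21 to 47.7). Without AG 1 the AG arm is a single library, AG 2, taken to vary like the other mice. Then 8 genes passed, all higher in that mouse, which were Ccl4, Ccl5, Cd74, Cst3, Gzmb, Ifitm1, Ifitm2 and Srgn. For Srgn the difference between all 4 mice was 1.19 (SE 0.21, adjusted p = 0.173).

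Type I interferon genes and Cd74 were highest in AG 2. The 32 type I interferon genes with a column summed to 49.1 UMIs per 10000 there and to 8.85 to 29.4 in the other mice. The interferon-gamma response genes did not follow, with the highest sum in AG 1 (161) and AG 2 (139) below both AG_CPI mice (153 and 146). Isg15, an interferon-induced ubiquitin-like protein, stood at 0.499 and 0.439 (NO_AG), 1.12 and 4.23 (AG) and 0.776 and 0.578 (AG_CPI) UMIs per 10000, and Cd74, the chaperone of MHC class II, at 3.16 and 0.705 (NO_AG), 6.58 and 19 (AG) and 7.42 and 6.63 (AG_CPI). For both genes AG 2 was highest of the 6 mice. All 14 tested type I interferon genes had a fitted difference above 0 in AG against NO_AG, with a median of 0.79, against 65.5% of all tested genes, and 2 of the 14 in AG_CPI against AG, with a median of -0.74. In the latter both AG_CPI mice lay below both AG mice in 10 of the 14, against 22.4% of all tested genes. The 4 dendritic genes tested had medians of 2.03 and -2.0 in the same 2 comparisons. Keratinocyte reference cells with a UMI were 7.79% and 12.9% (NO_AG), 63.5% and 67.9% (AG) and 36.5% and 30.5% (AG_CPI) for Isg15 and 18.9% and 23.2% (NO_AG), 41.9% and 76.9% (AG) and 37.2% and 52.3% (AG_CPI) for Cd74, highest in AG 2 as well. The part of free RNA in these values was not tested.

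Between AG_CPI and AG no gene passed either. The differences were 1.39 (SE 0.33, adjusted p = 0.642) for Itgav, 1.30 (SE 0.34, adjusted p = 0.642) for Il1r2 and 1.86 (SE 0.49, adjusted p = 0.642) for Lag3, each with both AG_CPI mice above both AG mice. The Lag3 difference was 0.96 without AG 1 and 2.77 without AG 2. Ikzf2 differed by 1.23 (SE 0.36, adjusted p = 0.642). Pdcd1 differed by 0.28 (SE 0.35, adjusted p = 0.907) and its mice overlapped. Tmsb10 differed by -0.46 (SE 0.09, adjusted p = 0.541) and Crip1, a small LIM protein named after its value was seen, by -0.78 (SE 0.16, adjusted p = 0.541). Over the 11 checkpoint genes the median log2 difference was 0.47 and 7 were free of overlap upward, against 16.5% of all tested genes.

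Helper directions were read from all 287 cells together. Interferon-gamma (Ifng) was found in 75 cells (26.1%, 95% Wilson interval 21.4% to 31.5%), against 0.732% of the keratinocyte reference cells, and T-bet (Tbx21) in 32 (11.1%) against 0.137%. Tumour necrosis factor (Tnf) was found in 66 (23.0%). Cells with Tbx21, Ifng or the T-bet target Cxcr3 numbered 136 (47.4%). By mouse this share ran from 37.1% to 52.0%, and from 30.3% to 40.6% when each cell was thinned to 1500 UMIs. Ifng stood at 2.69 and 0.666 (NO_AG), 2.15 and 2.04 (AG) and 2.24 and 2.33 (AG_CPI) UMIs per 10000. The NO_AG mice lay on either side of the other 4, and both AG_CPI mice lay above both AG mice by a small margin.

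The Th2 cytokines were rare. Il4 was found in 11 cells, Il5 in 3 and Il13 in 12, and any of the 3 in 23 cells (8.01%), while Il13 was found in 2.05% of the CD8 T cells. Gata3 was found in 77 cells (26.8%), against 50.1% of the keratinocyte reference cells, which were higher. Interleukins 17A, 17F and 22 were found in 0 of 287 cells each, so that up to 1.05% of the cells could hold a UMI. Ccr6 was found in 28 cells (9.76%), while Rora was found in 96 (33.4%) against 18.7% of the reference. After thinning, Rora was in 16.1% to 34.7% of the conventional cells of a mouse and in 3.49% to 9.49% of the reference. Bcl6, the follicular helper factor, was found in 7 cells, Cxcr5 in 0 and Il21 in 3. Both a Th1 and a Th2 gene were held by 48 cells, with Gata3 counted among the latter.

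**Figure D3:**
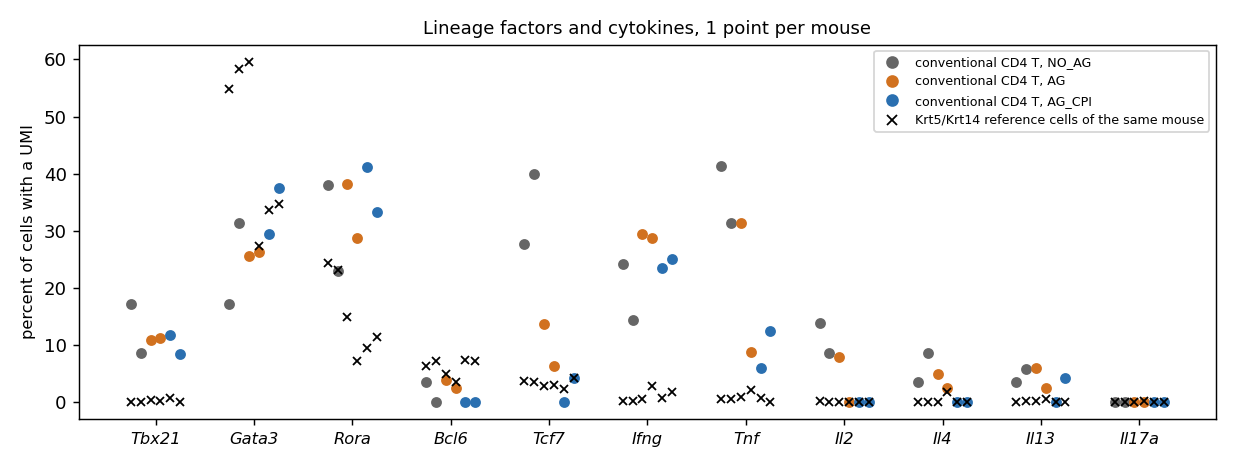
Percent of conventional CD4 T cells with a UMI of each lineage factor or cytokine, 1 point per mouse, with crosses for the keratinocyte reference cells of the same mouse. Ifng and Tnf lie above the crosses, Gata3 lies below them in 5 of 6 mice, and Il17a is at 0 in all 6 mice.

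Interleukin 2 (Il2), the T cell growth factor, was found in 15 cells. They were 4 of 29 and 3 of 35 in NO_AG, 8 of 102 in AG 1, and none in AG 2, AG_CPI 1 or AG_CPI 2. Tnf was found in 41.4% and 31.4% (NO_AG), 31.4% and 8.75% (AG) and 5.88% and 12.5% (AG_CPI), at levels of 2.77 and 1.7 (NO_AG), 1.68 and 0.396 (AG) and 0.739 and 0.245 (AG_CPI) UMIs per 10000. The NO_AG mice lay above the other 4, AG 1 close behind them, and the difference between AG_CPI and NO_AG did not pass, with a log2 difference of -1.39 (SE 0.45, adjusted p = 0.236). In AG 2 and both AG_CPI mice the counts of Il2 allow shares of up to 3.75%, 17.6% and 12.5%. These limits hold for single mice with few cells, and no difference in Il2 between AG_CPI and NO_AG was read from them.

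Genes of tissue residency differed widely in how many of these cells held them. Ccr7, the gene of a receptor that guides cells to lymph nodes, was found in 11 of 287 cells (3.83%) and the egress receptor gene S1pr1 in 5. Cxcr6, which holds T cells in skin, was found in 166 (57.8%) against 1.42% of the reference, Cd69 in 109 (38.0%) and Itgae, the gene of CD103, in 87 (30.3%). The residency integrin gene Itga1 was found in 11 (3.83%), against 23.6% of the CD8 T cells, the residency factor gene Prdm1 in 31 (10.8%) and Klf2, a factor of circulating T cells, in 24 (8.36%). Cxcr6 stood at 3.14 and 6.64 (NO_AG), 9.41 and 7.27 (AG) and 6.63 and 4.2 (AG_CPI) UMIs per 10000, and the AG and AG_CPI mice did not overlap, with AG higher; the difference did not pass, with a log2 value of -0.56 (SE 0.33, adjusted p = 0.812).

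Receptor segments were mixed. Exactly 1 beta variable segment was found in 169 of the 287 cells. Trbv19 was the commonest over all mice with 33 (19.5%), then Trbv31 with 15 and Trbv13-3 and Trbv15 with 14 each (8.28%). Trbv19 was carried by 3 of 14 and 0 of 25 such cells in NO_AG, 14 of 61 (23.0%) and 11 of 45 (24.4%) in AG, and 2 of 10 and 3 of 14 in AG_CPI. The commonest segment was Trbv12-1 in NO_AG 2, with 4 of 25, and Trbv13-3 in AG_CPI 1, with 3 of 10. In the CD8 T cells of the same mice Trbv13-3 made up 43.3% and 65.8% in AG and 81.1% and 79.3% in AG_CPI, against 3.13% and 2.87% in NO_AG. The conventional cells did not show such a share in AG 2 (2.22%) or AG_CPI 2 (0%), and had 7 of 61 in AG 1 and 3 of 10 in AG_CPI 1. In the NO_AG mice they had 2 of 14 and 1 of 25. When cells with a Trbv13-3 UMI were dropped, 9 of the 28 calls between AG_CPI and NO_AG remained.

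Against the CD8 T cells of the same mouse, 182 of 7179 genes differed (2.54%), 97 higher in conventional CD4 T cells (1.35%) and 85 lower (1.18%), by limma on the 6 differences within mice. The genes named here as higher or lower had the same sign in all 6 mice, except Cxcr6 with 5. Of 16 costimulation genes tested, 7 were higher, with a median log2 difference of 0.45 against -0.0034 over all genes. For OX40 (Tnfrsf4), the conventional cells of the 6 mice held 4.53, 2.16, 7.67, 9.68, 17.5 and 9.94 UMIs per 10000 and the CD8 T cells held 0.071, 0.0635, 0.508, 0.866, 0.271 and 0.431. The values did not overlap between the 2 cell types. The means were 8.59 ± 5.32 against 0.369 ± 0.304 (SD, n = 6 mice), a log2 difference of 3.23 (SE 0.15, adjusted p = 4.5e-09). Tnfrsf18 was at 5.74 ± 2.0 against 1.65 ± 0.389 (SD, n = 6), Icos at 5.98 ± 2.5 against 1.87 ± 0.906 and Tnfrsf9 at 4.79 ± 2.68 against 1.68 ± 0.952, with log2 differences of 1.5, 1.45 and 1.23. Cd40lg differed by 1.21 (SE 0.15, adjusted p = 1.6e-04), Il2ra, a chain of the interleukin 2 receptor, by 1.48 (SE 0.17, adjusted p = 4.8e-05), and Cd28 by 0.52 (SE 0.12, adjusted p = 0.0238).

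Genes linked with helper and regulatory programs followed. Maf, a factor of helper and regulatory T cells, was at 2.28 ± 0.599 against 0.264 ± 0.065 (SD, n = 6) UMIs per 10000, a log2 difference of 1.84 (SE 0.15, adjusted p = 1.2e-06). Rora was higher by 0.92, the amphiregulin gene Areg, a tissue repair factor, by 2.28, the interleukin 33 receptor gene Il1rl1 by 1.11 and the chemokine receptor gene Ccr8 by 0.70. Of 10 genes of the regulatory program tested, 7 were higher, with a median of 1.46. Of 14 checkpoint and exhaustion genes tested 2 were higher, 1 was lower and 11 did not pass, with a median log2 difference of 0.05. Ctla4 and Tigit were higher by 1.63 and 0.71, and Cd160, a receptor gene also on the list of CD8 T cell genes, was lower, with a log2 difference of -1.74 (SE 0.16, adjusted p = 8.2e-06) and a UMI in 7 of the 287 cells (2.44%) against 26.5% of the CD8 T cells. Pdcd1, Lag3 and Tox were among those that did not pass. Their log2 differences were 0.01 (SE 0.14, adjusted p = 0.993), -0.37 (SE 0.18, adjusted p = 0.373) and 0.21 (SE 0.14, adjusted p = 0.594). Glycolysis genes were higher in 5 of 17 cases, among them Pkm at 0.75. The tetraspanin gene Cd81 (2.26), the trefoil peptide gene Tff1 (1.93) and the arginine synthesis gene Ass1 (1.26) were also among the 12 with the smallest p.

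Genes of killing were lower. Of 17 cytotoxic genes tested 13 were lower and none higher, with a median log2 difference of -1.52. Granzyme A (Gzma) was almost absent: the conventional cells of the 6 mice held 0, 0, 0.206, 0.128, 0 and 0.134 UMIs per 10000 and the CD8 T cells held 2.1, 1.95, 16.7, 15.3, 87.9 and 76.3. The log2 difference was -4.71 (SE 0.12, adjusted p = 6.7e-13). Only 7 of the 287 cells held a Gzma UMI (2.44%), no more than the 2.56% of keratinocyte reference cells. Granzyme B (Gzmb) was at 2.9 ± 2.94 against 9.57 ± 4.0 (SD, n = 6), a log2 difference of -1.97 (SE 0.19, adjusted p = 1.0e-05), and the granule gene Nkg7 at 11.3 ± 5.08 against 30.4 ± 4.75, a difference of -1.46 (SE 0.10, adjusted p = 4.0e-07). The killer cell receptor genes Klrd1, Klrk1 and Klrc1 were lower, with differences of -2.63, -1.85 and -1.38 on the log2 scale. Perforin (Prf1) differed by -1.27 and Ccl5 by -2.10. Ifng was lower too, at 2.02 ± 0.699 against 4.16 ± 1.3 (SD, n = 6) and a log2 difference of -0.90 (SE 0.15, adjusted p = 0.0029), as was Cxcr6 at -0.71. Tbx21 did not pass, with a log2 difference of -0.01 (SE 0.15, adjusted p = 0.993). Without AG_CPI 1 the number of genes that differed was 194, with 149 of the 182 among them, without NO_AG 1 it was 120, and with no filter on low levels it was 24.

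**Figure D4:**
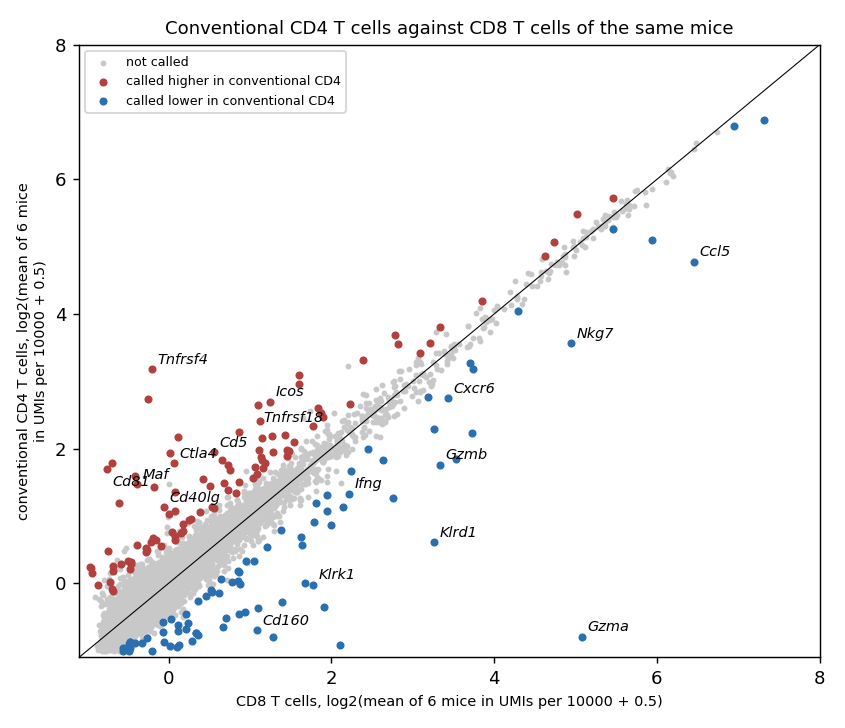
Each tested gene in conventional CD4 T cells and in CD8 T cells, as log2 of its mean over 6 mice (UMIs per 10000, plus 0.5). Red points were higher and blue points lower in conventional CD4 T cells at an adjusted p of 0.05, and the line marks equal levels. The means are unscaled, so points need not match the tested log2 differences. Tnfrsf4, Tnfrsf18 and Icos lie on the CD4 side and Gzma, Klrd1 and Nkg7 on the CD8 side.

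Whether the antigen and CPI differences themselves differed between the 2 cell types was tested on 2871 genes. For AG against NO_AG 0 genes passed by limma (0.0%, 172 at an unadjusted p under 0.05), and for AG_CPI against AG 0 (0.0%, 180). For Tigit, Pdcd1 and Ctla4 the difference between cell types in the AG against NO_AG change was -0.43 (SE 0.33), -0.07 (SE 0.35) and 0.71 (SE 0.39) on the log2 scale. For Ikzf2 it was 1.61 (SE 0.43, adjusted p = 0.528). With errors of this size, the values do not show that the 2 cell types changed alike.

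Against Foxp3 regulatory T cells the comparison could use 3 mice with at least 10 of each, AG 1, AG 2 and AG_CPI 2. Of 2879 genes 254 differed (8.82%), 121 higher (4.2%) and 133 lower (4.62%) in conventional cells, but the fit within mice has 1 residual degree of freedom and takes the single AG_CPI mouse to vary like the AG mice. The prior degrees of freedom that limma estimated for this fit were infinite, so every gene was given the variance of the trend, and its p-values are not printed. With no term for the mouse 26 genes differed, all of them among the 254, and the genes named next are of these 26 and went the same way in all 3 mice. Cxcr6 stood at 9.41 against 1.1 in AG 1, 7.27 against 0.694 in AG 2 and 4.2 against 0.314 in AG_CPI 2. Ifng stood at 2.15 against 0.398 in AG 1, 2.04 against 0.22 in AG 2 and 2.33 against 0 in AG_CPI 2, and Cd40lg at 1.58 against 0 in AG 1, 1.22 against 0.0907 in AG 2 and 2.15 against 0.462 in AG_CPI 2. These 3 genes were higher in the conventional cells of each mouse, by log2 differences of 2.62 for Cxcr6 and 2.11 for Ifng, while Cd40lg had 4 UMIs in all in the regulatory cells. The integrin chain gene Itgb1 and Nkg7 were also higher, by 1.96 and 1.51. The chemokine gene Ccl1 stood at 2.11 against 0.0787 in AG 1, 1.07 against 0 in AG 2 and 7.94 against 0 in AG_CPI 2, from 1 UMI in the regulatory cells.

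Regulatory cells held more Tnfrsf4, Ctla4 and Ikzf2 RNA than conventional cells. Over all mice together, and with no test, Pdcd1 was found in 21 of 143 regulatory and 71 of 287 conventional cells, Lag3 in 37 and 53, and Tigit in 101 and 90. Tnfrsf4 stood at 7.67 against 22.8 in AG 1, 9.68 against 20.9 in AG 2 and 9.94 against 36.5 in AG_CPI 2, and Ctla4 at 3.31 against 6.61 in AG 1, 3.35 against 6.06 in AG 2 and 4.07 against 10.7 in AG_CPI 2. Ikzf2 stood at 3.0 against 9.25 in AG 1, 3.32 against 9.2 in AG 2 and 9.31 against 14 in AG_CPI 2, so that conventional cells of AG_CPI 2 reached the level of regulatory cells of the 2 AG mice. The log2 differences were -1.54, -1.04 and -0.97. Il2ra, Il1r2 and Tnfrsf9 were lower, with differences of -1.21, -1.14 and -1.18. By the fit within mice, with its 1 residual degree of freedom, 7 of the 12 regulatory program genes tested were lower. Their median was -0.94, against -0.0029 over all genes. Ighm was lower as well, at 2.48 against 8.68 in AG 1, 2.37 against 8.19 in AG 2 and 4.61 against 9.1 in AG_CPI 2. Icos did not pass, at 6.68 against 9.31 in AG 1, 8.13 against 10.3 in AG 2 and 8.93 against 9.39 in AG_CPI 2.

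**Figure D5:**
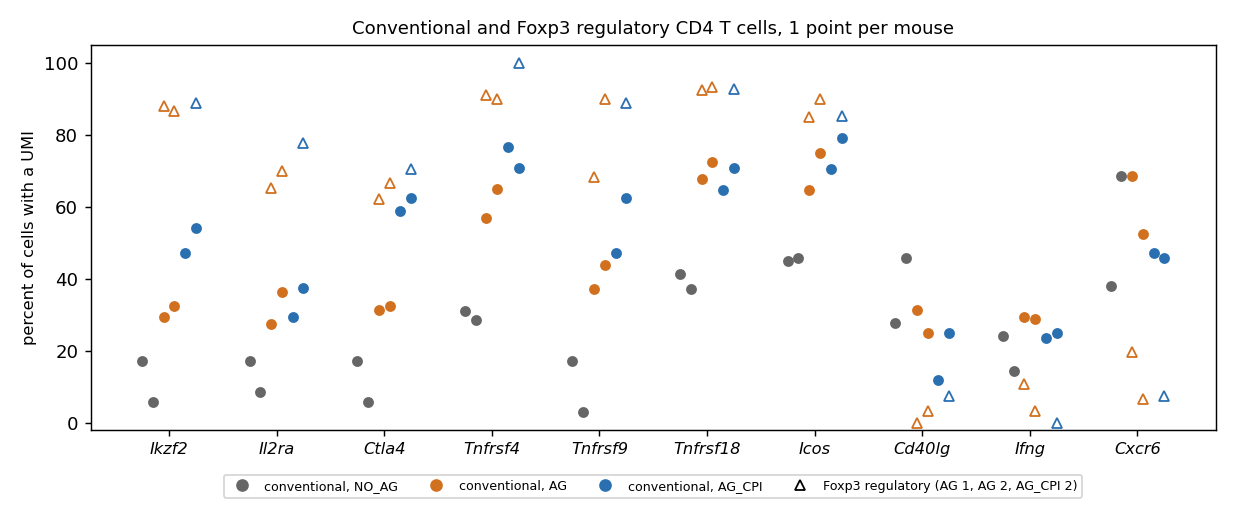
Percent of cells with a UMI of each gene, filled points for conventional CD4 T cells of each mouse and open triangles for Foxp3 regulatory T cells of AG 1, AG 2 and AG_CPI 2. Triangles lie above the filled points for Ikzf2, Il2ra and Tnfrsf4 and below them for Ifng and Cxcr6.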

How the data were processed

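Single-cell RNA of skin from 6 mice was deposited as 1 table per mouse. The authors deposited log10 values, log10(1 + UMIs per 10000 UMIs of the cell), as the values themselves show: dividing each cell's values by its smallest gave whole UMIs for 100% of them within 0.02. Per the submitters' processing notes, Cell Ranger 3.1 and the mm10 build were used; other filters are not given in the sources used here. The tables hold 16158 gene columns, and their cells 1501 to 14995 UMIs. The intervals and limits cover counting error only.

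Cells were taken by the gate, and CD8 T cells and Foxp3 regulatory T cells by matching gates. The members and gene lists were chosen with earlier results of these data known. For each mouse the mean UMIs per 10000 over its cells was scaled by a trimmed mean of M-values, and log2(mean + 0.5) was tested with limma 3.58.1 (R 4.3.3, trended prior, Benjamini-Hochberg adjustment), over genes with at least 10 UMIs and a mean of 0.1 in at least 2 libraries. Fold changes are on that scale and understate low genes. A gene passed at an adjusted p of 0.05. All 6 mice entered the group comparisons, which left 3 residual degrees of freedom. CD8 and regulatory T cells were compared within mice having at least 10 cells of both. The 14 genes used for gates were left out of the tests. With 2 mice a group, p-values measure the spread between these mice only. Shares were compared by two-sided exact permutation tests over mice (scipy 1.17.1), with 95% Wilson intervals for single shares and 3 UMIs as the limit that a count of 0 allows. Doublets were scored with Scrublet (scanpy 1.11.5) and kept. The fits were checked on simulated data.

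The named genes were up to 12 that were higher and 12 that were lower by smallest p, among genes whose groups did not overlap or, between cell types, whose sign was the same in every mouse, without receptor segments, sex-linked, mitochondrial, ribosomal, Gm-numbered and Rik genes. Members of the lists could be named whatever their result. Alternatives covered scaling, pseudocount, filter, averaging, doublets, gate, depth, weights, block, samples in the fit and leaving out each mouse.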

Additional observations from a re-analysis of the deposited data

Results flagged for a closer look

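Ddx3y, a Y-linked gene outside every comparison made here, was found in 41.2% of the conventional CD4 T cells of AG_CPI 1 and in none of those of the other 5 mice, while Xist was not found in the same AG_CPI 1 cells. In the CD8 T cells of that library Xist was found in 51.1% and Ddx3y in 2.29%. The signal drew attention because it lies in data that no comparison used and is above the level of the NO_AG mice. Groups of 2 mice are too small for a test of outlying samples.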

How the results depend on the processing

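Of 28 genes that differed between AG_CPI and NO_AG, the number moved to 12 with a pseudocount of 0.1, to 0 with no filter on low levels, to 9 without Trbv13-3 cells, to 12 with a receptor chain UMI required and no Krt5 or Krt14 UMI, to 2 with weights by cells and to 17 with only the 2 groups in the fit, and ran from 0 (without NO_AG 2) to 31 when single mice were left out. Il1r2 and Ikzf2 were among those that passed in each of these except with no filter and without NO_AG 2. Between AG and NO_AG leaving out single mice gave 0 to 8 genes (8 without AG 1), and between AG_CPI and AG 0 to 2. Against CD8 T cells the 182 became 24 with no filter and 120 (without NO_AG 1) to 251 on leaving out mice. Differences between cell types in the group changes gave 1 and 1 with no filter, 1 with summed UMIs for AG_CPI against AG, and 0 to 11 and 0 to 7 on leaving out mice. Against regulatory T cells the 254 became 0 with no filter, 26 with summed UMIs and 141 without AG_CPI 2. The causes were not tested, beyond the larger number of genes tested with no filter and the fewer mice. With stricter receptor and keratin limits the difference between AG_CPI and NO_AG in the share of Cd3 cells was 0.0848 points, and that between AG_CPI and AG in the regulatory share -0.668 points. The latter ran from -10.6 to 19.7 points on leaving out mice, with -1.45 without AG 2. Of 292 values of named genes between AG_CPI and NO_AG, 189 stayed on the same side of the threshold, 103 no longer passed and 0 changed direction.

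The labels do not say whether the replicate numbers pair mice. Deviations of mice with the same number correlated at -0.0419 (NO_AG with AG), 0.0143 (NO_AG with AG_CPI) and -0.112 (AG with AG_CPI). Whether such mice shared a batch was not tested. With a replicate block 1 gene passed between AG and NO_AG and 36 between AG_CPI and NO_AG. With no replicate block, 26 genes differed from regulatory T cells. With 17 to 102 cells per mouse, a gene found in few cells rests on few UMIs.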
